A study of Homo sapiens with 6 samples.

Results

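The genes described here are 46 components of the DNA replication machinery, taken from a fixed list of symbols that runs from origin licensing through helicase activation, the replicative polymerases, the sliding clamp and single-strand binding to deoxynucleotide supply. All 46 were found among the 35810 genes matched in the files, and all 46 were among the 13737 genes with enough reads to be tested. The libraries were polyA+ RNA-seq from DLD-1, an established human colorectal adenocarcinoma line, in 2 groups of 3. Every cell carried SPT5-AID, in which the elongation factor SPT5 is fused to an auxin-inducible degron, and the line also expresses the plant auxin receptor AtAFB2. The labels name no auxin for these libraries. The groups differ in a lentiviral short hairpin RNA kept under puromycin selection. It targets ARMC5 (shARMC5), which encodes an adaptor of the CUL3 ubiquitin ligase, or is a non-targeting control (shNT), and the labels do not say which ARMC5 hairpin was used. The comparison asks how expression differs when ARMC5 is knocked down. The study's methods describe its replicates as biological. Neither they nor the labels say whether these were separate infections, and the P values measure the spread between these libraries.

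Replication is licensed in G1, when the origin recognition complex, CDC6 and CDT1 load the MCM2-7 helicase onto DNA and geminin later blocks reloading. In S phase the CDC7-DBF4 kinase, CDC45, the GINS complex and MCM10 turn the loaded helicase into a moving fork, where DNA polymerase alpha-primase starts each strand, polymerases delta and epsilon extend it on the PCNA clamp, and FEN1 and LIG1 join Okazaki fragments. Many of these genes are transcribed near the G1 to S transition under E2F factors, whose sites occur in their promoters beside the CCAAT boxes bound by NF-Y.

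The start regions of CDC6 and RRM2, which were the only members to pass the test, and of MCM6, which carries the densest set of motifs among the 3 shown and did not pass, are printed below from RefSeq (GRCh38.p14) on the strand of the gene. Capitals mark the motifs searched. CDC6 is chr17:40287729-40287898 on the plus strand, with 150 bases before the start base and the first 20 transcribed bases. RRM2 is chr2:10122589-10122758 on the plus strand, cut in the same way. MCM6 is chr2:135876424-135876613 on the minus strand, with 170 bases before the start.
CDC6: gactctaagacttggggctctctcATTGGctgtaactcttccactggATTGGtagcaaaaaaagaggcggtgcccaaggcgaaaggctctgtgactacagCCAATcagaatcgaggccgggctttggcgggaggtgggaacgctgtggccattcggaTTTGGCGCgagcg
RRM2: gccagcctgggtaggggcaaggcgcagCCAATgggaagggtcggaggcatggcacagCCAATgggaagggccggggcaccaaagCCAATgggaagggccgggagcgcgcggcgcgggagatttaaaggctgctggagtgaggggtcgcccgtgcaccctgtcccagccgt
MCM6: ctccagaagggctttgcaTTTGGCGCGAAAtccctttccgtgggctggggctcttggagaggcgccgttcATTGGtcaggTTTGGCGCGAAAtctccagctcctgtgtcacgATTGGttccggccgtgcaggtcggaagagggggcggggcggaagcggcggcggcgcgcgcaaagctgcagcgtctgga
The E2F-type motifs searched were TTTCGCGC, TTTGGCGC, TTTCCCGC and TTTGCCGC, and the CCAAT box was searched as CCAAT, each on both strands. In CDC6 the E2F-type match began 7 bases downstream of the start base and 3 CCAAT matches lay upstream. RRM2 held 3 CCAAT matches, the nearest beginning 66 bases upstream. MCM6 held 2 stretches in which TTTGGCGC on the printed strand overlapped TTTCGCGC on the other.

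A RefSeq window of 300 bases was matched for 40 of the 46 members. RPA3, MCM4, MCM5, POLD3, RPA2 and GINS4 were not matched. An E2F-type motif was present in 20 of the 40 (50%), against 3.99% of all 27305 genes with a window. A CCAAT motif was present in 23 of the 40 (57.5%), against 39.7% of all genes. The median log2 fold change between shARMC5 and shNT was 0.02 over the 20 members with an E2F-type motif and 0.05 over the 20 without. A match is a run of letters and was not tested as a binding site.

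Before the members, the libraries were checked. Each held between 26201112 and 40866478 estimated reads, and the values below are CPM (these reads scaled to a common library size with TMM factors) unless TPM, which is per transcript length, is named. ARMC5 stood at 10.8, 11.97 and 12.9 CPM in the shARMC5 libraries and at 23.0, 25.9 and 26.7 CPM in the shNT libraries. The ranges did not overlap, and ARMC5 fell by 1.09 on the log2 scale (SE 0.080; edgeR adjusted P = 5.3e-07), with an exact two-sided permutation p of 0.1, the smallest that 3 against 3 libraries allow. Of 9 intestinal epithelial markers, 7 exceeded 1 TPM, CDX1 was listed at 0 and KRT20 was not analysed here. Their summed level was 7807 to 8103 TPM in shARMC5 and 6877 to 7358 TPM in shNT, led by KRT8 and KRT18, which rose by 0.18 and 0.25 on the log2 scale. VIL1 fell by 1.30 and CDH17 by 0.27, while EPCAM, CDH1 and CDX2 did not pass the test. The part of these markers in the results was not tested. Summed markers of fibroblasts, blood and endothelium reached at most 1.31, 2.31 and 0.37 TPM in any library.

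Expression of the replication genes was close between the groups. CDC6 and RRM2 rose, no member fell, and the other 44 did not pass the test (edgeR quasi-likelihood test, adjusted P under 0.1). The 2 called members are 4.35% of the 46, against 7.75% of all tested genes called in either direction. By direction, 4.44% of all tested genes were called higher and 3.3% lower. At an unadjusted edgeR P under 0.05, 8 members (17.4%) passed, against 18.1% of all tested genes. The libraries of the groups did not overlap for 11 members (23.9%), against 23.4% of all tested genes. All shARMC5 libraries lay above all shNT libraries for 8 members (17.4%; 12.5% of all genes) and below them for 3 (6.52%; 10.9% of all genes). In bulk RNA, a change in the share of cells in S phase and a change in RNA per cell cannot be told apart.

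The log2 fold changes of the members ran from -0.12 (GINS1) to 0.16 (POLE2), with a median of 0.03. Over all tested genes the median was -0.0014. The estimate was above 0 for 35 members (76.1%) and below 0 for 11, against 49.5% above 0 over all tested genes and 52.3% over the 8833 tested genes at or above the level of the lowest member. The intervals were narrow: for 43 members the 95% interval of the log2 fold change lay within 0.2 of 0 on both sides. POLE2, GINS1 and POLA2 were the exceptions. The same held for 67.2% of the genes at or above the lowest member's level and for 43.5% of all tested genes. Each member had between 316 and 25274 reads in a library, and the median coefficient of variation of CPM within a group was 2.58%.

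**Figure D1:**
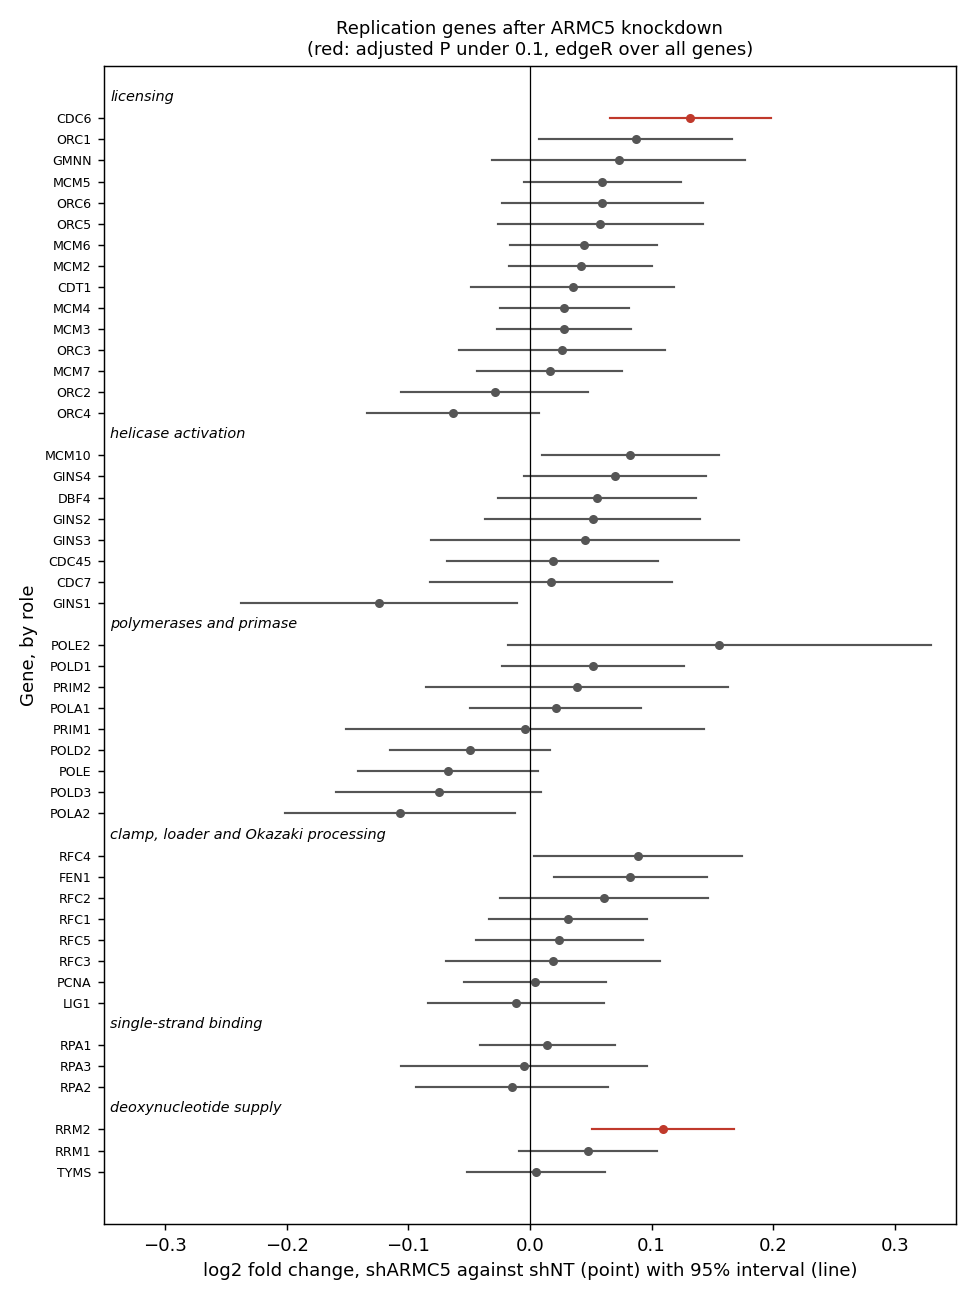
Log2 fold change of each of the 46 replication genes between shARMC5 and shNT (point) with its 95% interval (line), grouped by role on the vertical axis. CDC6 and RRM2, in red, are the 2 members with an edgeR adjusted P under 0.1, and the other 44 points lie between -0.12 and 0.16.

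Among the 15 licensing genes, 1 rose (6.67%, against 4.44% of all tested genes) and none fell (against 3.3%). Their median log2 fold change was 0.04. CDC6, the ATPase that helps to load the MCM helicase, stood at 188, 189 and 183 CPM in shARMC5 and at 169, 177 and 165 CPM in shNT. Every shARMC5 library exceeded every shNT library, with means of 187 ± 3.47 and 170.4 ± 5.93 CPM (SD, n = 3). The log2 fold change was 0.13 (SE 0.031, 95% interval 0.07 to 0.20, edgeR adjusted P = 0.021), a difference of 9.57%. In TPM the CDC6 groups overlapped, at 158 to 168 in shARMC5 and 149 to 161 in shNT. The 6 subunits of the MCM2-7 helicase had log2 fold changes of 0.016 (MCM7) to 0.06 (MCM5), and none passed. The origin recognition subunits ran from -0.06 to 0.09. ORC1, the largest subunit of the complex, measured 74.6, 75.1 and 71.6 CPM in shARMC5 and 69.1, 71.1 and 68.2 CPM in shNT. Its groups did not overlap, at a log2 fold change of 0.09 (edgeR adjusted P = 0.228). ORC4 had the lowest estimate of the role, with 91.2, 89.7 and 87.6 CPM against 93.4, 94.0 and 93.3 CPM in shNT. That is a log2 fold change of -0.06 (edgeR adjusted P = 0.340). CDT1, the MCM loading factor, and its inhibitor geminin (GMNN) had log2 fold changes of 0.04 and 0.07, with overlapping groups.

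None of the 8 helicase activation genes passed, and their median log2 fold change was 0.05. MCM10, which helps to activate the assembled helicase, had the highest estimate of the role. It stood at 96.1, 97.5 and 92.4 CPM in shARMC5 and at 89.4, 90.3 and 90.6 CPM in shNT, without overlap, for a log2 fold change of 0.08 (edgeR adjusted P = 0.208). GINS1, a subunit of the GINS complex that rides with MCM2-7 at the fork, had the lowest estimate of all 46 members. Its values were 38.1, 42.2 and 38.8 CPM in shARMC5 and 42.8, 45.2 and 42.1 CPM in shNT. The groups overlapped through shARMC5 replicate 2, and the log2 fold change was -0.12 (SE 0.054, edgeR adjusted P = 0.231). The other 3 GINS subunits lay above 0, from 0.05 for GINS3 to 0.07 for GINS4. CDC45 and the kinase genes CDC7 and DBF4 had log2 fold changes of 0.02, 0.02 and 0.06.

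The 9 polymerase and primase genes had a median log2 fold change of -0.0038, with 4 above 0 and 5 below. None passed. POLE2, an accessory subunit of polymerase epsilon and the lowest member in TPM, had the highest estimate, 0.16 (SE 0.082, edgeR adjusted P = 0.339). It stood at 13.5, 14.0 and 13.0 CPM in shARMC5 and at 13.1, 12.03 and 11.3 CPM in shNT, and the groups overlapped. POLA2, the B subunit of polymerase alpha, had the lowest estimate, -0.11 (SE 0.045, edgeR adjusted P = 0.211), from 58.5, 56.5 and 62.1 CPM against 62.9, 65.8 and 61.6 CPM. When a correction for average transcript length was added in DESeq2, POLA2 was the only member called, at a log2 fold change of -0.28 (adjusted P = 0.095). In that fit 1 of 46 members (2.17%) was called, against 4.9% of the genes given an adjusted P. The same correction in edgeR called no member, against 1.71% of all tested genes, and turned the estimate for POLE2 to -0.033. POLD3, an accessory subunit of polymerase delta, was lower in every shARMC5 library than in any shNT library, at 55.1 to 57.5 CPM against 58.5 to 60.7 CPM (log2 fold change -0.07, edgeR adjusted P = 0.343). The catalytic subunits POLA1, POLD1 and POLE had log2 fold changes of 0.02, 0.05 and -0.07. PRIM2, the large primase subunit, stood at 29.7, 28.9 and 31.5 CPM in shARMC5 and at 28.4, 30.5 and 28.8 CPM in shNT, with interleaved groups.

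The 8 genes of the clamp, its loader and Okazaki fragment processing had a median log2 fold change of 0.03, and none passed. PCNA, the sliding clamp and the most abundant member in TPM, showed 416, 438 and 432 CPM in shARMC5 and 417, 435 and 431 CPM in shNT. The groups interleaved, at a log2 fold change of 0.0039 with a 95% interval of -0.05 to 0.06. RFC4, a subunit of the clamp loader, had the highest estimate of the role, 0.09 (edgeR adjusted P = 0.258), from 66.1, 66.0 and 67.5 CPM against 62.8, 64.9 and 59.8 CPM. LIG1, the ligase that seals Okazaki fragments, had the lowest, -0.011, from 127.0, 129.6 and 132 CPM against 127, 136 and 129 CPM. FEN1, the flap nuclease, was described after its values were seen. It stood at 177, 172 and 183 CPM in shARMC5 and within 167 to 168 CPM in shNT, without overlap (log2 fold change 0.08, edgeR adjusted P = 0.137). In TPM the FEN1 groups overlapped, at 126 to 131 in shARMC5 and 121 to 129 in shNT. FEN1 shares exon sequence on the same strand with FADS2, a fatty acid desaturase gene that fell by 1.80 on the log2 scale, from 20.8 to 5.95 CPM.

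The 3 genes of the single-strand binding complex RPA had the smallest median size of log2 fold change of any role, 0.014. RPA1, the large DNA-binding subunit, measured 229, 236 and 234 CPM against 229, 232 and 232 CPM. RPA2 measured 73.5, 73.5 and 70.9 CPM against 71.4, 75.04 and 73.9 CPM. Their log2 fold changes of 0.014 and -0.015, and that of -0.0047 for RPA3, were each smaller than their standard errors.

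Of the 3 deoxynucleotide supply genes, 1 rose (33.3%, against 4.44% of all tested genes) and none fell (against 3.3%). In a list of 3 genes, 1 call alone makes this share. RRM2, the small subunit of ribonucleotide reductase, which makes deoxynucleotides from ribonucleotides, stood at 606, 641 and 628 CPM in shARMC5 and at 573, 590.1 and 575 CPM in shNT. All 3 shARMC5 libraries were above all 3 shNT libraries, with means of 625 ± 17.4 and 579 ± 9.36 CPM (SD, n = 3). The log2 fold change was 0.11 (SE 0.028, 95% interval 0.05 to 0.17, edgeR adjusted P = 0.031), a difference of 7.86%. In TPM the RRM2 groups overlapped, at 342 to 386 in shARMC5 and 340 to 361 in shNT. RRM1, the large subunit, had a log2 fold change of 0.05 (edgeR adjusted P = 0.374). TYMS, thymidylate synthase, stood at 349.7, 364 and 347 CPM in shARMC5 and at 346, 358 and 354 CPM in shNT, at a log2 fold change of 0.0049. The calls for CDC6 and RRM2 rest on small differences. Without shARMC5 replicate 2 the edgeR adjusted P was 0.107 for CDC6 and 0.165 for RRM2, and without shNT replicate 3 it was 0.112 and 0.108, so neither was called. Without shNT replicate 1 the adjusted P of RRM2 was 0.117 and that of CDC6 0.086. With the transcript length offset neither was called, at 0.279 and 0.464. The log2 fold changes stayed near the main ones, at 0.11 to 0.16 for CDC6 and 0.09 to 0.13 for RRM2 over the libraries left out and at 0.09 for both with the offset.

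**Figure D2:**
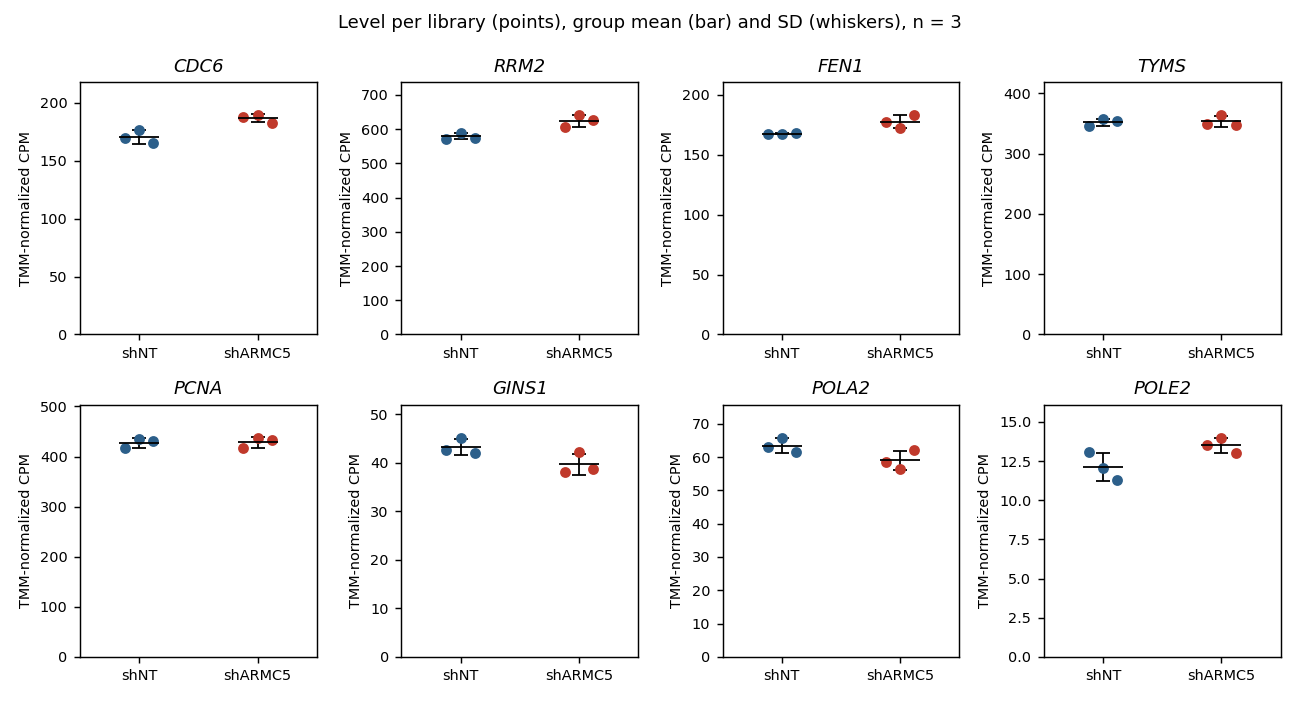
TMM-normalized CPM of 8 replication genes in each library (points), with the group mean (bar) and SD (whiskers) of 3 libraries; every vertical axis starts at 0. The shARMC5 points lie above all shNT points for CDC6 (183 to 189 against 165 to 177 CPM), RRM2 (606 to 641 against 573 to 590.1 CPM) and FEN1, and the groups overlap for TYMS, PCNA, GINS1, POLA2 and POLE2.

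Because the library kit does not mark strand, reads of overlapping genes on opposite strands cannot be told apart. A tested gene overlapped exons of 13 of the 46 members. Those with a call of their own were FADS2 at FEN1, ENOSF1 at TYMS (log2 fold change -0.22), WSB2 at RFC5 (0.11) and GSE1 at GINS2 (-0.12). CDC6 and RRM2 were not among the 13. Pseudogene copies named after members took at most 0.65% of the reads of their member.

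Further genes of replication and the cell cycle were read from 6 lists holding 83 genes, all of them tested. Of these 6 rose, 2 fell and 75 did not pass, with a median log2 fold change of 0.014. The 8 called genes are 9.64% of the 83, close to the 7.75% of all tested genes. The 13 origin firing and fork protection factors and the 8 chromatin assembly factors had no call in either direction. Among 15 further polymerase, clamp and primer factors, RNASEH2C, a subunit of the nuclease that removes RNA from DNA, rose by 0.19 on the log2 scale (52.1, 52.9 and 58.5 against 45.1, 48.5 and 49.7 CPM; edgeR adjusted P = 0.0499). The DNA topoisomerases TOP2A and TOP2B fell. Calls up and down were 6.67% and 13.3% of this list, against 4.44% and 3.3% of all tested genes. TOP2A stood at 650.2, 658 and 629 CPM in shARMC5 and at 696, 702 and 669.8 CPM in shNT, a log2 fold change of -0.09 (edgeR adjusted P = 0.067). TOP2B stood at 122, 126 and 119 CPM against 130.5, 131.7 and 134.6 CPM, a log2 fold change of -0.11 (edgeR adjusted P = 0.059). Among 9 further deoxynucleotide enzymes, 1 rose (11.1%, against 4.44% of all tested genes). It was TK1, the S-phase thymidine kinase, which rose by 0.12 (280.4, 272 and 275 against 249, 265 and 246 CPM, edgeR adjusted P = 0.027). Leaving out 1 library ended each of these calls in some cases, at edgeR adjusted P values of 0.106, 0.219 and 0.238 for RNASEH2C (shARMC5 replicates 2 and 3 and shNT replicate 1) and 0.118 and 0.132 for TK1 (shNT replicates 1 and 3). The TOP2B call was lost without shARMC5 replicate 1 or 3 or shNT replicate 1 or 3 (0.123 to 0.202), and the TOP2A call whichever library was left out except shNT replicate 3 (0.108 to 0.226). With the transcript length offset in edgeR none of the 4 was called, with adjusted P values of 0.918 for RNASEH2C, 0.447 for TOP2A, 0.165 for TOP2B and 0.307 for TK1, and the log2 fold change of RNASEH2C was 0.03. Over all 15 alternatives the log2 fold change ran from 0.10 to 0.15 for TK1, from -0.14 to -0.09 for TOP2B and from -0.11 to -0.08 for TOP2A.

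Among 26 genes of G1 to S control, 3 rose (11.5%, against 4.44% of all tested genes) and none fell (against 3.3%). CCND1, cyclin D1, stood at 976, 984 and 962 CPM in shARMC5 and at 855, 897 and 842 CPM in shNT. Its log2 fold change of 0.17 (edgeR adjusted P = 0.0015) was called under each of the 15 alternatives. DTL, a substrate receptor of the CUL4 ligase that targets CDT1, rose by 0.14 (78.4, 79.3 and 72.0 against 69.8, 71.1 and 67.6 CPM; edgeR adjusted P = 0.067). CDC25A, a phosphatase that activates cyclin-dependent kinases, rose by 0.11 (84.7, 89.1 and 85.5 against 81.3, 80.1 and 78.1 CPM; edgeR adjusted P = 0.086). DTL was called in 7 of the 15 alternatives and was lost without shARMC5 replicate 1 or 2 or shNT replicate 1 or 3 (edgeR adjusted P 0.165 to 0.281). CDC25A was called in 5 and was lost whichever library was left out (0.113 to 0.309). The list's median was 0.012, and none of the E2F genes passed. Of 12 G2 and M markers, 1 rose (8.33%, against 4.44% of all tested genes) and none fell (against 3.3%). It was CDC20, the activator of the anaphase-promoting complex, which rose by 0.12 (338.5, 336 and 350.3 against 312, 317 and 311 CPM, edgeR adjusted P = 0.011). This call was lost in 1 of the 15 alternatives, when edgeR was corrected for transcript length (adjusted P = 0.113). The median of these 12 was -7.4e-05.

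Levels between genes were compared per transcript length. The members spanned 15.1 TPM for POLE2 to 566 TPM for PCNA, means over the 6 libraries, with a median of 68.2 TPM against 16.4 TPM over all tested genes. Of the 46, 45 stood above the median tested gene and 13 above the 90th percentile. After PCNA the most abundant were RRM2 (359 TPM), TYMS (355 TPM) and MCM7 (262 TPM). RRM2 and TYMS did not differ beyond their spread, at 340 to 386 and 344 to 365 TPM. The least abundant after POLE2 were PRIM2 and GINS1, both at 20.3 TPM.

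Genes whose products are built into the same complex were not at the same level. The spans cover the listed members of each complex and sum all transcripts of a gene, coding or not. For MCM7, ORC4 and DBF4 the top transcript is not annotated as coding: it is a retained intron entry holding 50.3% and 24.5% of TPM for MCM7 and ORC4, and a nonsense-mediated decay entry holding 50.9% for DBF4. The canonical coding transcripts of MCM7 and ORC4 held 46.8% and 18.9%. The orders and spans were not computed for coding transcripts alone and may differ there. In MCM2-7, whose subunits assemble in equal numbers, the order was MCM7, MCM4, MCM3, MCM5, MCM2 and MCM6, from 262 to 108 TPM, a 2.42-fold span. The ranges of MCM3 and MCM5, and of MCM5 and MCM2, overlapped over the 6 libraries, and the other neighbours were apart. Within libraries MCM3 exceeded MCM5 in all 6 and MCM5 exceeded MCM2 in 4. Origin recognition subunits ran from ORC4 (83.7 TPM) through ORC6, ORC5, ORC2 and ORC3 to ORC1 (32.5 TPM), with the ranges of ORC4 and ORC6, and of ORC5 and ORC2, overlapping although the former of each pair was higher in all 6 libraries. GINS4 and GINS2 overlapped at 46.2 and 42.4 TPM, as did GINS3 and GINS1 at 23.6 and 20.3 TPM. Within libraries GINS4 was the higher in 5 of 6 and GINS3 in 6 of 6. DBF4 was 3.21-fold above CDC7 in TPM. The canonical coding transcript held 1.64% of the TPM of DBF4 and 81.7% of that of CDC7, so this is not a ratio of coding transcripts. The 3 listed subunits of polymerase delta spanned 6.81-fold, from POLD2 (252 TPM) through POLD1 (56.8 TPM) to POLD3 (37.1 TPM). The fourth, POLD4, was at 15.2 TPM, which widens the span to 16.6-fold. The catalytic subunit of polymerase epsilon, POLE (36.5 TPM), was 2.41-fold above POLE2. Its further subunits POLE3 (126 TPM) and POLE4 (87.7 TPM) were higher than both, and all 4 spanned 8.32-fold. Polymerase alpha-primase spanned 1.73-fold, in the order POLA2, PRIM1, POLA1 and PRIM2, with POLA2 and PRIM1 overlapping. POLA2 exceeded PRIM1 in TPM in all 3 shNT libraries and in 1 of 3 shARMC5 libraries. In the clamp loader RFC2, RFC4 and RFC5 overlapped in turn at 88.4, 86.2 and 79.0 TPM, above RFC1 and RFC3. RFC2 exceeded RFC4 in 3 of 6 libraries, and RFC4 exceeded RFC5 in all 6. RPA1 was at 149.9 TPM, RPA3 at 87.4 TPM and RPA2 at 72.7 TPM, each apart from its neighbour. RRM2 exceeded RRM1 in all 6 libraries, with a ratio of TPM of 1.55 ± 0.066 in shARMC5 and 1.49 ± 0.012 in shNT (SD, n = 3). These ratios overlapped, the lowest shARMC5 library being at 1.49.

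**Figure D3:**
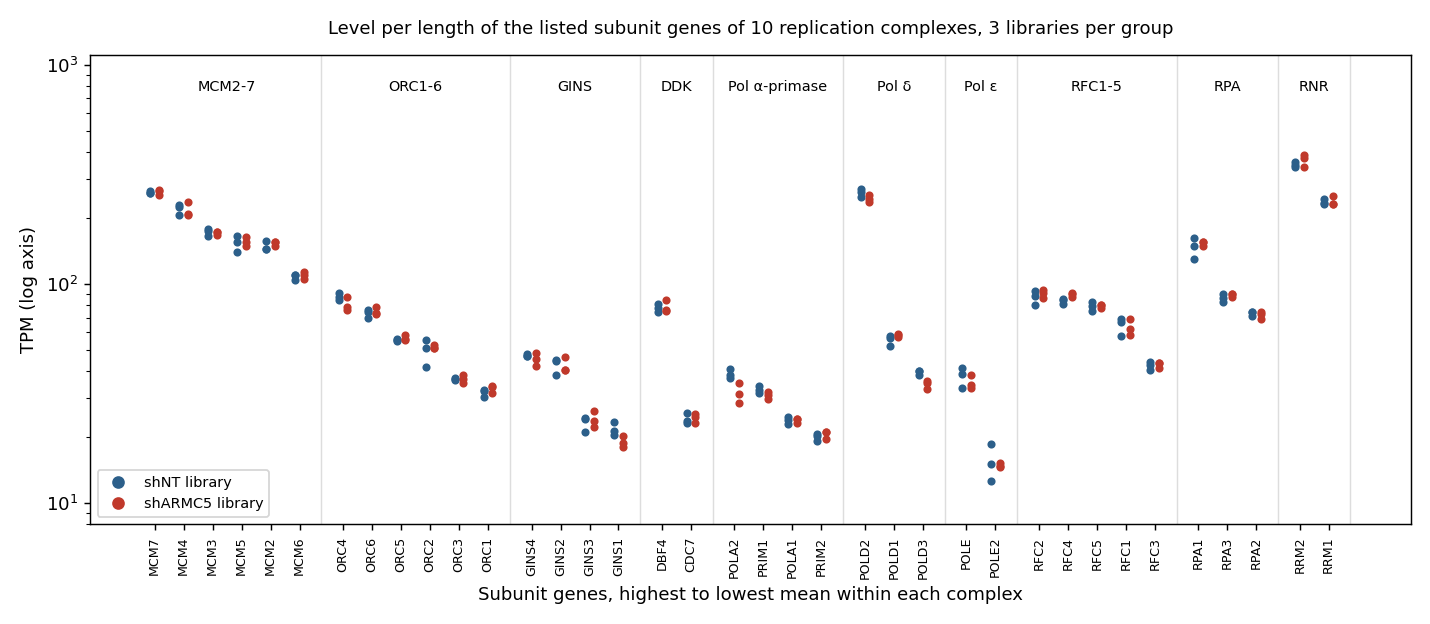
TPM of the listed subunit genes of 10 replication complexes on a log axis, with each library as a point (shNT blue, shARMC5 red) and subunits in falling order of their mean. The 3 listed subunits of polymerase delta are spread 6.81-fold and those of MCM2-7 2.42-fold. TPM is summed over all transcripts of a gene, coding or not.

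The transcripts of the members were then tested. The files list 416 transcripts for them, of which 219 had enough reads. None of the 219 was called (edgeR, lowest adjusted P = 0.252), against 4 of all 49809 tested transcripts (0.00803%), and 13 (5.94%) had an unadjusted edgeR P under 0.05, against 4.93% of all tested transcripts. The most abundant transcript was the annotation's canonical one for 38 of the 46 members. It held at least 80% of the gene's TPM for 17 members and under 50% for 10. Its share did not overlap between the groups for 8 of the 46 members, and the same count over all genes is not given here. The widest differences were for RRM2, described below, and RPA3, at 43.5% ± 3.22 in shARMC5 and 54.0% ± 6.24 in shNT. MCM6, PCNA, FEN1 and TYMS were each carried almost wholly by their top transcript, at 99.98%, 98.9%, 98.4% and 97.6%. For CDC6 the top transcript, ENST00000649662, is coding and held 52.5% ± 1.60 of its TPM in shARMC5 and 50.4% ± 0.95 in shNT. Its log2 fold change was 0.16 (edgeR adjusted P = 0.819).

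RRM2 held the lowest P among the members' transcripts. ENST00000304567, the canonical coding transcript of 3258 bases, took 63.6%, 55.4% and 53.3% of RRM2 TPM in shARMC5 and 27.6%, 42.1% and 24.5% in shNT. ENST00000652660, annotated as a retained intron transcript of 3271 bases, took 10.3%, 13.5% and 12.3% in shARMC5 and 39.8%, 27.7% and 45.0% in shNT. For both, no shARMC5 library overlapped any shNT library. The log2 fold changes were 0.95 (SE 0.21, edgeR adjusted P = 0.451) and -1.54 (SE 0.23, edgeR adjusted P = 0.252). In the annotation (GRCh38, plus strand) these transcripts have the same 10 exons and splice junctions. They differ in 13 terminal bases alone. ENST00000652660 spans chr2:10122730-10131418 and ENST00000304567 spans chr2:10122739-10131414, so the former has 9 more bases at the 5′ end, which lie in the RRM2 start region printed above, and 4 more at the 3′ end. Nearly every read from either is therefore shared, and the salmon program divides it by estimate. Summed, they took 69.5% ± 4.19 of RRM2 TPM in shARMC5 and 68.9% ± 1.34 in shNT (SD, n = 3). The summed level was 524, 558 and 528 CPM in shARMC5 and 489, 510.1 and 507 CPM in shNT, without overlap. With the correction for average transcript length the log2 fold change of RRM2 was 0.09 in edgeR, with an adjusted P of 0.464.

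**Figure D4:**
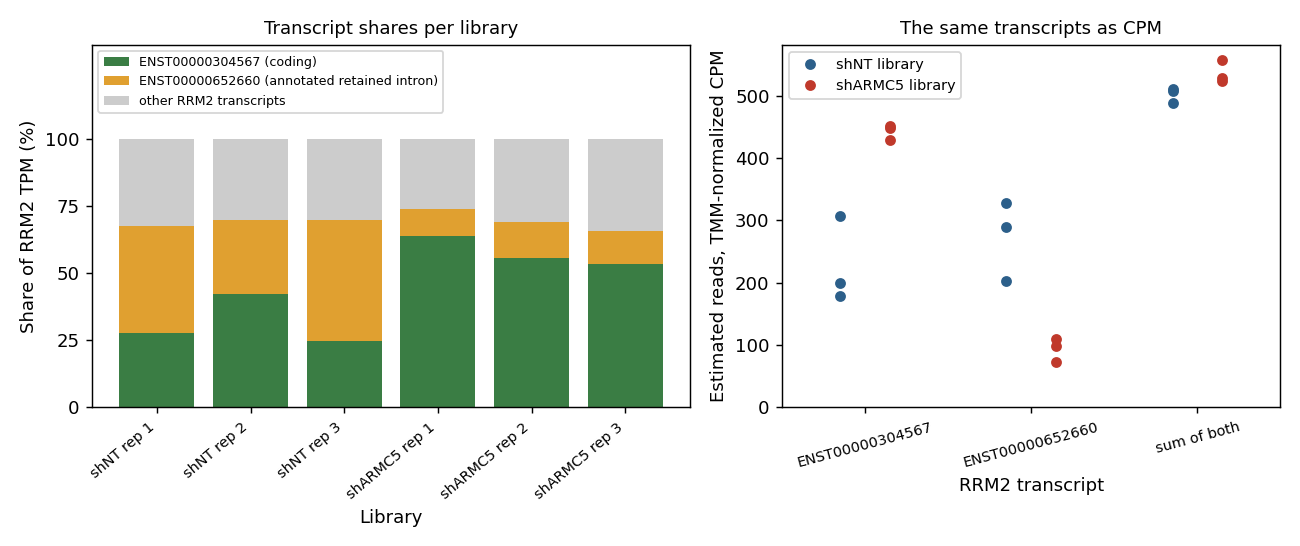
Left, share of RRM2 TPM (%) held by ENST00000304567, by ENST00000652660 and by all other RRM2 transcripts in each library; right, TMM-normalized CPM of the same 2 transcripts and of their sum, with libraries as points. The coding transcript holds 53.3% to 63.6% in shARMC5 and 24.5% to 42.1% in shNT, while the sum of both lies at 524 to 558 CPM and 489 to 510.1 CPM.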

How the data were processed

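PolyA+ RNA of 6 libraries, 3 per group, was prepared with a kit that does not mark strand. According to the study's methods and the submitters' processing notes, the authors trimmed reads with cutadapt 4.2 and quantified transcripts on hg38 with salmon 1.9.0 with its GC bias option. The transcript set is not given in the sources used here. The deposited files hold estimated counts and TPM per transcript.

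Transcripts were matched by identifier without version to GENCODE 44 (165533 of 177456 matched). The 11923 unmatched held 2.96% to 3.04% of the estimated counts and stayed out of the gene sums. Estimated counts were summed per gene and rounded, and the study's own filter, a count of 10 or more in 3 or more libraries, left 13737 genes. The study itself tested with DESeq2 after summarizing transcripts with tximeta, so the calls given here are not its calls. Here differences were tested with edgeR 4.0.16 in R 4.3.3 (robust quasi-likelihood F test, TMM normalization, condition alone). Benjamini-Hochberg adjustment ran over all genes, with the study's threshold of 0.1. The test was run on simulated data first. The common biological coefficient of variation was 0.0643. Standard errors were derived from the fold change and the F statistic. CPM, TPM, SD and shares were computed in Python 3.11.15 with pandas 2.3.3, numpy 2.4.6 and scipy 1.17.1. Log2 fold changes are shARMC5 minus shNT. Alternatives were 2 other normalizations, 2 other count filters, DESeq2 1.42.0 with and without a transcript length offset, the offset in edgeR, a stricter threshold, addition of unmatched transcripts to their neighbour, the replicate number as a block, and each library left out in turn.

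The members and lists were chosen with earlier results of these data known. The genes given with values in every library were ARMC5, the members called, the highest and lowest log2 fold change of each role, the 3 highest and 3 lowest members in TPM, and up to 5 called genes each way in each further list. ORC1, POLD3, FEN1, FADS2 and the other overlapping genes fall outside this rule and were named after their values were seen.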

Additional observations from a re-analysis of the deposited data

Results flagged for a closer look

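A transcript outside the gene sums, ENST00000400279, was present in the libraries of 1 group alone. It has no match in the annotation used and is listed directly after the transcripts of POLD2. It held 100.8, 127.6 and 61.2 estimated reads in the shARMC5 libraries and 0 in each shNT library. Its lowest shARMC5 value, 61.2 reads, is above the 3 counts that a 0 allows in a library. That limit covers counting error only, and a 0 here can also come from how salmon divides shared reads between transcripts. The files do not name its gene, and its place after POLD2 does not make it a transcript of that gene.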

How the results depend on the processing

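The main setting called 2 members and 1064 genes (610 higher, 454 lower). CDC6 and RRM2 were the members called under 10 of the 16 alternatives. With the transcript length offset 0 members and 235 genes were called in edgeR, and 1 member (POLA2) and 568 genes in DESeq2. DESeq2 is the program that the study used. Leaving out a library gave 0 to 2 members, 536 to 1074 genes and 0 to 2 transcripts, against 4 transcripts in the main setting. The fewest genes, 536, were called when shNT replicate 1 was left out; dropping shARMC5 replicate 2 gave 583 and dropping shNT replicate 3 gave 675. An adjusted P under 0.05 left 676 genes and 1 transcript. The lower count filter called 1537 genes. Scaling by library size alone shifted the split to 458 higher and 495 lower and the median of all genes from -0.0014 to -0.016. The members' median was then 0.016, and it ranged to 0.042 over the alternatives.

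Correlations of same-numbered deviations from the group means were -0.031, -0.036 and 0.068, and not every library correlated best with its own number. With 3 libraries per group these values cannot decide whether libraries of the same number were prepared together. The replicate block called 1766 genes (972 higher, 794 lower), against 1064 in the main setting, with 3 members (FEN1 added) and 0 transcripts. It ended no call of CDC6 or RRM2.

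POLE2, the highest estimate of the members at 0.16, reversed to -0.034 and -0.033 with the length offset in DESeq2 and edgeR. Among the other named members, LIG1, RPA2, TYMS and PCNA changed sign, each from an estimate within 0.015 of 0. LIG1 went to 0.027 and 0.028 with the same offset. With library size alone TYMS went to -0.0091 and PCNA to -0.010. Over the libraries left out LIG1 ranged from -0.032 to 0.021, RPA2 from -0.034 to 0.0016, TYMS from -0.017 to 0.016 and PCNA from -0.014 to 0.023. None of these passed the test. The causes were not tested. Over all named genes and alternatives, 310 values kept their direction and side of the threshold, 49 lost a call, 2 gained a call and 14 changed sign. The 95% interval of PCNA, the most abundant member in TPM, spans -0.05 to 0.06. The widest interval, that of POLE2, extends 0.17 to each side of its estimate.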
